A study of Mus musculus with 6 samples.

Results

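The 10 genes Igf1, Igf1r, Insr, Irs1, Irs2, Akt1, Akt2, Mtor, Rptor and Eif4ebp1 form the route from insulin-like growth factor 1 (IGF1) and insulin to Akt, mTOR and protein synthesis. They were taken by gene symbol from a table of chromatin accessibility around transcription start sites, and all 10 had a row among the 49366 windows of that table. The assay was ATAC-seq: a transposase inserts sequencing adapters into open DNA, so that more reads come from more open chromatin. The nuclei were sorted for PCM1, a protein that surrounds the nuclei of muscle fibres, from the gastrocnemius and the tibialis anterior (TA) of C57BL/6J males. AAV6 vectors were injected into the muscles at 8 weeks of age and the tissue was taken 28 days later, and each replicate pooled 4 gastrocnemius and 4 TA muscles.

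There were 3 samples of LacZ-shRNA, in which the vector expressed a short hairpin RNA against the bacterial gene lacZ, and 3 of Yap-shRNA, in which it was directed against Yap. Every sample therefore carried a vector and a hairpin, and the comparison held opposite limbs of treated animals. The viral promoter used, CMV, is not particular to muscle fibres, and pooled muscles give no value for a single animal. The labels name skeletal muscle, whereas the design text of the series calls the cells cardiomyocytes. Of 10 myofibre marker genes, 8 had windows from 14.7 ± 2.06 (Mylpf) to 65.4 ± 15.7 (Atp2a1) CPM (counts scaled to the library total) per kb of window in LacZ-shRNA (SD, n = 3), Myh4 and Tnnt3 among them, while Myh1 (4.27 ± 1.29) and Myh2 (5.17 ± 1.26) lay near the median of all windows, 4.50. The 10 summed per kb gave 20.1 to 29.5 in the LacZ-shRNA samples and 21.4 to 24.8 in the Yap-shRNA samples. The summed markers of satellite cells, fibroblasts, endothelial cells, leukocytes, and smooth muscle and pericytes lay between 3.94 and 6.87 per kb in every sample, with single markers from 1.85 (Col3a1) to 13.2 (Cd68) and none of the 30 at 0. None of the 30 passed the test described below. An unadjusted p under 0.05 was seen for 5 of the 30, against 4.90% of all windows. Kdr and Calcr were at -0.59 and -0.37 on the log2 scale, Yap-shRNA against LacZ-shRNA, and Col1a1, Col3a1 and Csf1r at 0.39, 0.34 and 0.32. All 3 satellite cell markers and 8 of the 10 myofibre markers were below 0, where 47.3% of all windows were above 0. The myofibre markers had a median of -0.14, beside -0.014 for all windows. The remaining types were mixed, with 4 of 5 endothelial markers above 0, 3 of 5 fibroblast markers below 0, and Ptprc of leukocytes at -0.30. The part of these markers in the results was not tested. In pooled nuclei a change in the share of one cell type and a change in accessibility per nucleus cannot be told apart. Window counts totalled 3326803 to 10319467 per sample and peak counts 2588520 to 6871176, and LacZ-shRNA replicates 1 and 2 were the shallowest in both.

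IGF1 and insulin bind the receptor kinases IGF1R and INSR, which phosphorylate the adaptors IRS1 and IRS2 and so recruit phosphoinositide 3-kinase. Its lipid product activates Akt, which drives glucose uptake, keeps FOXO transcription factors out of the nucleus and relieves the brake on mTOR complex 1. That complex, built from mTOR and Raptor, phosphorylates the translational repressor 4E-BP1, and in skeletal muscle the route is known for its control of fibre size and insulin sensitivity. Yap is a coactivator of the Hippo pathway that acts mainly through TEAD transcription factors. The comparison asks whether the chromatin of these genes differed once Yap was knocked down.

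The sequences below carry the DNA context of that question and were searched for 6 motifs on both strands. These were ACATTCC for TEAD, GTAAACA for FOXO, CAGCTG for the muscle E-box, GGGCGG for Sp and KLF factors, TGCGCA for the NRF type and TGACGTCA for the CRE core. RefSeq gave 12 promoters (GRCm38.p6) for 8 of the genes, each the 250 bases before a transcript start. Capitals mark the motif matches, and all sequences run 5′ to 3′ on the strand named. The Irs1 promoter (chr1:82291440-82291689, minus strand) is shown because it was the only one of the 12 with a TEAD match, with 2 Sp/KLF matches beside it. The Irs2 promoter (chr8:11008930-11009179, minus strand) lies in the widest of the 38 peaks linked to these genes, and the promoter of Igf1r (chr7:67952007-67952256, plus strand) is the richest in GC of those printed. Of the Akt1 promoters, that at chr12:112674885-112675134 (minus strand) is shown because it held the only FOXO match. The Akt2 promoter (chr7:27591302-27591551, plus strand) and that of Rptor (chr11:119602655-119602904, plus strand) are shown as the least GC-rich of those in a listed peak.
Irs1: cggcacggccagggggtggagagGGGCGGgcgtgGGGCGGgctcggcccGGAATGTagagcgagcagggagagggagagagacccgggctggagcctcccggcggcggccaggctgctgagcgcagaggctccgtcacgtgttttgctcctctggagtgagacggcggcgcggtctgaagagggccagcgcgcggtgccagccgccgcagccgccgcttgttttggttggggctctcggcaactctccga
Irs2: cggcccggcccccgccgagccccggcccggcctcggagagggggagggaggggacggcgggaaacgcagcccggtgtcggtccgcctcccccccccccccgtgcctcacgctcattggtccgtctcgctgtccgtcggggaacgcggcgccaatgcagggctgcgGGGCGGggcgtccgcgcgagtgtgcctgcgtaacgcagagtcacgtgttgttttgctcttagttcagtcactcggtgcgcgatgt
Igf1r: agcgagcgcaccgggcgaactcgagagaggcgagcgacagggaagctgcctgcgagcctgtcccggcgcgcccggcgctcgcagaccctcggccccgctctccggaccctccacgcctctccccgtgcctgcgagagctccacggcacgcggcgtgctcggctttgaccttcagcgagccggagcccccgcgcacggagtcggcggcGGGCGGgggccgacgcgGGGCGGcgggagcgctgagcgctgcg
Akt1: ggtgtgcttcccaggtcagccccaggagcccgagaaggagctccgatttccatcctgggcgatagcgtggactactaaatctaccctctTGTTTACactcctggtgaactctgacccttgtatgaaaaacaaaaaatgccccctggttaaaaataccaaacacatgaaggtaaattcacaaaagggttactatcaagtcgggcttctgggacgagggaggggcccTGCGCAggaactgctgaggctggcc
Akt2: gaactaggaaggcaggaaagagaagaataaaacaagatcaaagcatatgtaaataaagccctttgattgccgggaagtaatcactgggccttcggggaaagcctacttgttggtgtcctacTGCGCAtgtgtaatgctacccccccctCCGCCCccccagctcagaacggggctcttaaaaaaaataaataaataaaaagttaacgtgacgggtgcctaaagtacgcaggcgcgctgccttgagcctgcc
Rptor: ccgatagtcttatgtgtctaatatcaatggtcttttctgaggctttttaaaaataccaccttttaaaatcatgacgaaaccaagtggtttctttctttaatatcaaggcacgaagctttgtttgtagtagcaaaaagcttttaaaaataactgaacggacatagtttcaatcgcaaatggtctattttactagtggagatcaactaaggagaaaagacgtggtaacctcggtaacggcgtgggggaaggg

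The promoters differed in composition. GC content was 77.6% in the Igf1r stretch, 72.8% in that of Irs2 and 72.4% in that of Irs1, against 52.0%, 48.8% and 37.6% in the Akt1, Akt2 and Rptor stretches. Another Akt1 promoter, not printed (chr12:112674277-112674526, minus strand), had 78.4% GC and 4 Sp/KLF matches. An Sp/KLF match was present in 6 of the 12 promoters, and in 32.7% of 32851 mouse promoters of the same length. The TEAD letters occur in 3.25% of all promoters and were in 1 of the 12. The FOXO letters occur in 3.17% and were in 1, the E-box in 13.0% and in 2, the NRF type in 6.43% and in 2, and the CRE core in 1.55% and in 0. A match describes letters in this stretch and not a bound site.

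Accessibility of each gene was read from a window reaching 1 kb up- and downstream of each annotated start, so a gene with many starts has a long window. Levels are therefore given in CPM of the window table, scaled by TMM factors, and per kb of window where genes are compared. By this measure Irs1 was the most open of the 10, at 24.1 ± 4.87 CPM per kb in LacZ-shRNA (SD, n = 3), which is percentile 99.3 of all windows. Its samples lay between 20.5 and 29.7, above every sample of the next gene, Akt2, at 13.5 to 17.4. The Irs1 window is a single stretch and has a listed peak. Those of Akt2 and Rptor join 5 and 6 stretches, of which 2 and 1 have a listed peak, so the order depends on the make-up of the windows. Igf1 was the least open, at 4.90 ± 0.293 CPM per kb. This was percentile 57.1 of all windows but below the median of protein-coding windows, 5.68. Its samples lay below all those of its neighbour Igf1r, at 6.75 to 8.08. Between these ends the order was Akt2, Eif4ebp1, Irs2, Akt1, Mtor, Insr, Rptor and Igf1r, with means from 15.9 to 7.37 CPM per kb, and each of these overlapped the next in its LacZ-shRNA samples. The same pairs of neighbours did and did not overlap when all 6 samples were taken. The Irs2 and Akt1 windows share bases with windows of other genes, so their places in this order are uncertain. The Irs1 and Irs2 windows, each around a single start, had a GC content of 64.3% and 70.6%, while the Igf1 window had 45.9%. CpG dinucleotides were at 1.01 times the number expected from base composition in the Irs2 window, 0.65 in Irs1 and 0.30 in Igf1. The median was 0.24 over all windows and 0.36 over protein-coding windows.

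**Figure D1:**
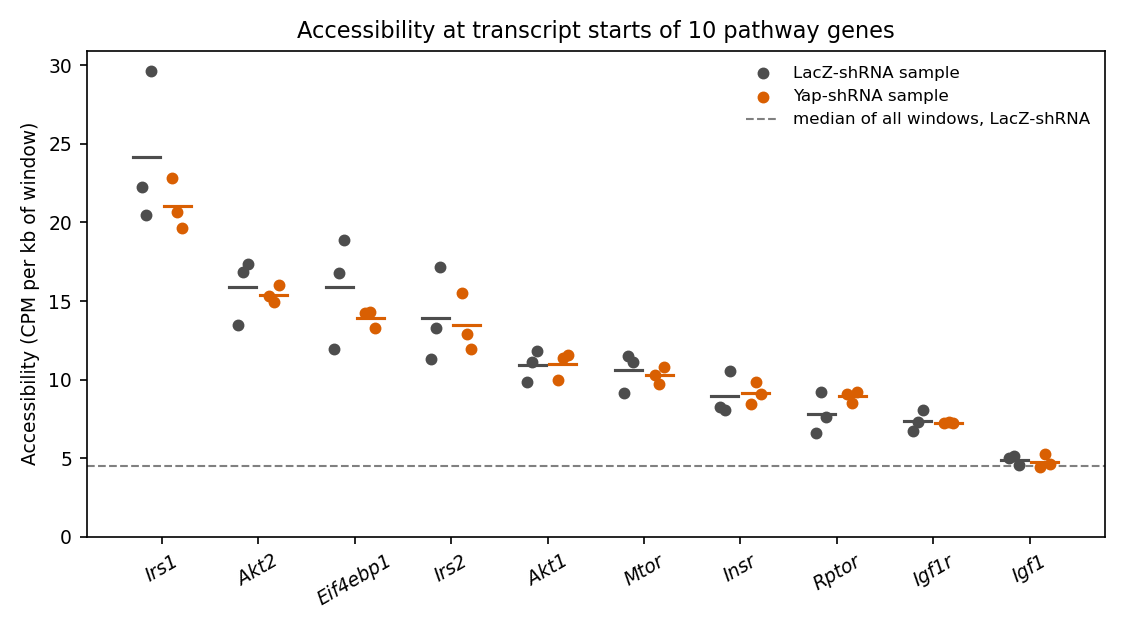
Accessibility in CPM per kb of window (linear axis) for each of the 10 genes, with a point per sample, a bar at the mean of each group and a dashed line at the median of all windows in LacZ-shRNA (4.50). Irs1 stands above and Igf1 below the others, and the LacZ-shRNA and Yap-shRNA points of each gene overlap.

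After Yap knockdown none of the 10 windows passed the test in either direction. In edgeR's quasi-likelihood test, adjusted over all 49366 windows at 0.05, 0 of 10 were called, where 11 of all windows were called (0.0223%). An unadjusted p under 0.05 was seen for 0 of 10, against 4.90% of all windows, and in 0 of 10 did the groups separate, against 10.1%. The likelihood-ratio test, DESeq2 and limma voom also called 0 of the 10. The log2 fold changes, Yap-shRNA against LacZ-shRNA, ran from -0.22 to 0.20, with 3 above 0 (47.3% of all windows were) and 7 below, and a median of -0.033 beside -0.014 for all windows. With scaling by library size alone, Igf1, Igf1r, Akt2 and Mtor moved above 0 and the median was 0.029. The 95% intervals of the 10 differences together reached from -0.51 to 0.48, and each interval holds differences the test could not tell from 0.

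The ligand was examined first. Igf1 (ENSMUSG00000020053, chr10:87858265-87937042, GRCm38, plus strand), which muscle makes as a local growth factor, has 8 annotated starts in a single window of 5065 bp. It held 25.3, 26.0 and 23.1 CPM in LacZ-shRNA and 22.5, 26.5 and 23.5 CPM in Yap-shRNA, with the groups interleaved. The log2 fold change was -0.023 (SE 0.15, 95% interval -0.32 to 0.27, adjusted p 0.992 by edgeR). These values rest on 81 to 285 counts per sample. No listed peak lay within 50 kb of Igf1.

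Of the receptors, Igf1r (ENSMUSG00000005533, chr7:67952827-68233668, plus strand) held 78.2, 84.3 and 93.6 CPM in LacZ-shRNA and 83.8, 84.8 and 83.7 CPM in Yap-shRNA. The LacZ-shRNA samples spanned the Yap-shRNA samples on both sides, and the log2 fold change was -0.025 (SE 0.13, 95% interval -0.29 to 0.24, adjusted p 0.990 by edgeR). Insr (ENSMUSG00000005534, chr8:3122061-3279617, minus strand), the insulin receptor, held 66.6, 65.4 and 85.0 CPM in LacZ-shRNA and 68.1, 79.5 and 73.1 CPM in Yap-shRNA. Its single high LacZ-shRNA sample, replicate 3, lay above all others and the remaining LacZ-shRNA samples below all Yap-shRNA samples. The log2 fold change was 0.013 (SE 0.14, 95% interval -0.26 to 0.29, adjusted p 0.995 by edgeR) and rose to 0.16 without that replicate, still with an adjusted p of 0.787 in edgeR.

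The adaptors gave the lowest value of the group. Irs1 (ENSMUSG00000055980, chr1:82233101-82291416, minus strand), the main substrate of both receptors in muscle, held 44.5, 41.0 and 59.4 CPM in LacZ-shRNA and 45.7, 41.3 and 39.3 CPM in Yap-shRNA. LacZ-shRNA replicate 3 stood above the 5 other samples, which lay between 39.3 and 45.7. The log2 fold change was -0.22 (SE 0.14, 95% interval -0.51 to 0.067, p 0.129 and adjusted p 0.946 by edgeR), and it was -0.028 without that replicate. Irs2 (ENSMUSG00000038894, chr8:10984681-11008458, minus strand), an adaptor that FOXO factors are known to induce in fasting, held 22.6, 26.6 and 34.4 CPM in LacZ-shRNA and 31.1, 25.8 and 23.9 CPM in Yap-shRNA. The groups covered nearly the same range, with a log2 fold change of -0.072 (SE 0.16, 95% interval -0.39 to 0.24, adjusted p 0.982 by edgeR) that turned to 0.15 without LacZ-shRNA replicate 3. The Irs2 window overlaps that of 9530052E02Rik, so its counts are uncertain.

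The Akt genes gave values close to 0. Akt1 (ENSMUSG00000001729, chr12:112653821-112674884, minus strand), the broadly expressed isoform tied to growth, held 113, 127 and 135 CPM in LacZ-shRNA and 114, 130 and 132 CPM in Yap-shRNA. Both groups ran over almost the same values, and the log2 fold change was 0.0037 (SE 0.14, 95% interval -0.27 to 0.28, adjusted p 0.999 by edgeR). Its window overlaps that of Mir6939 and is uncertain in the same way. Akt2 (ENSMUSG00000004056, chr7:27591552-27640826, plus strand), the isoform that mediates insulin-stimulated glucose uptake in muscle, has 14 starts and the longest window, 14864 bp. It held 200.4, 251 and 258 CPM in LacZ-shRNA and 228, 222 and 238 CPM in Yap-shRNA, the Yap-shRNA samples lying inside the LacZ-shRNA range. The log2 fold change was -0.046 (SE 0.14, 95% interval -0.34 to 0.25, adjusted p 0.986 by edgeR).

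The mTOR complex and its target gave the highest value of the group and one of the lowest. Mtor (ENSMUSG00000028991, chr4:148448611-148557683, plus strand), the kinase, held 36.7, 46.1 and 44.8 CPM in LacZ-shRNA and 41.2, 39.0 and 43.5 CPM in Yap-shRNA, with a log2 fold change of -0.042 (SE 0.14, 95% interval -0.32 to 0.24, adjusted p 0.987 by edgeR). The Yap-shRNA samples again lay inside the LacZ-shRNA range. Rptor (ENSMUSG00000025583, chr11:119602905-119899576, plus strand), which encodes Raptor, the scaffold that brings substrates to complex 1, held 92.8, 129 and 107 CPM in LacZ-shRNA and 127, 119 and 129 CPM in Yap-shRNA. LacZ-shRNA replicates 1 and 3 were the lowest of the 6, but replicate 2 was as high as the highest Yap-shRNA sample. The log2 fold change was 0.20 (SE 0.14, 95% interval -0.083 to 0.48, p 0.162 and adjusted p 0.949 by edgeR), and it was 0.10 without LacZ-shRNA replicate 1. Eif4ebp1 (ENSMUSG00000031490, chr8:27260329-27276674, plus strand), which encodes 4E-BP1, held 47.8, 67.3 and 75.5 CPM in LacZ-shRNA and 57.0, 57.3 and 53.2 CPM in Yap-shRNA. The Yap-shRNA samples sat together between the lowest and the other LacZ-shRNA samples. The log2 fold change was -0.19 (SE 0.14, 95% interval -0.48 to 0.10, adjusted p 0.949 by edgeR). It moved to -0.37 without LacZ-shRNA replicate 1 (adjusted p 0.135 by edgeR) and to -0.021 without replicate 3.

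**Figure D2:**
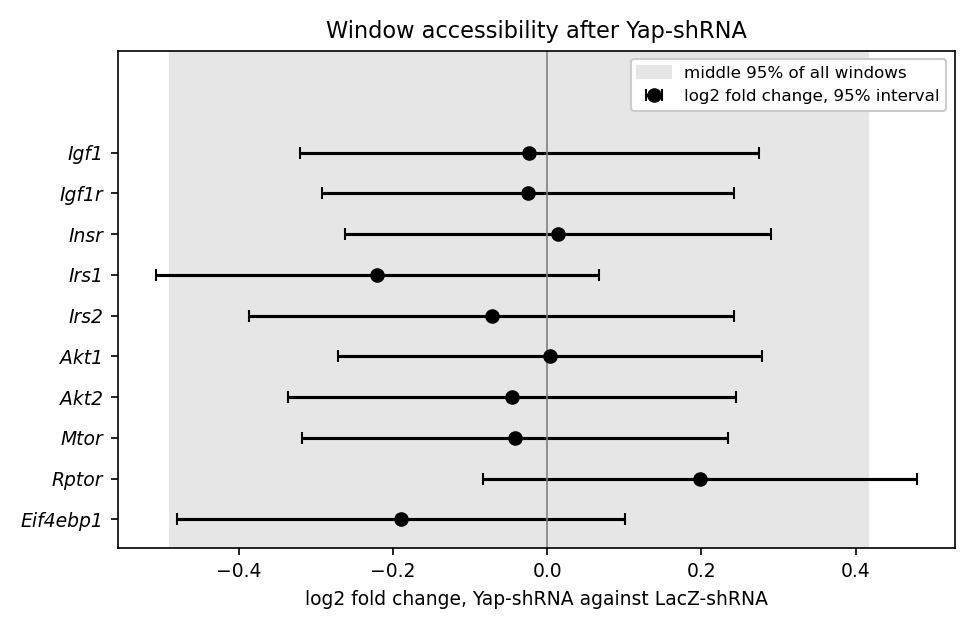
Log2 fold change of each window, Yap-shRNA against LacZ-shRNA, with its 95% interval from the fit over all windows, on a grey band for the middle 95% of all windows (-0.49 to 0.42). All 10 intervals cross 0, with Irs1 and Eif4ebp1 at the low end and Rptor at the high end.

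Peaks showed where in each gene the open chromatin lay. Of 36097 peaks, 38 lay in or within 10 kb of 9 of the 10 genes, 21 of them in introns and 10 within 1 kb of a start of the gene itself. Levels here are CPM of the peak table, which was scaled separately from the windows, and a wide peak collects more reads than a narrow one. In edgeR's test over all peaks, 0 of the 38 were called, against 223 of all peaks (0.618%), and 1 had an unadjusted p under 0.05, against 8.90%. DESeq2, the likelihood-ratio test and limma voom likewise called 0 of the 38. The log2 fold changes were above 0 in 19 (49.5% of all peaks were) and below 0 in 19, and the groups separated in 2, against 13.3% of all peaks. Within 50 kb there were 61 peaks, again with 0 called and with 8 at an unadjusted p under 0.05.

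None of the 10 promoter peaks passed the test. Per kb of peak they held 26.3 (Rptor) to 37.8 (the internal peak of Akt2) CPM in LacZ-shRNA, a narrower span than their totals. Irs1, highest per kb of window, was not highest here, at 29.5. That was below both Akt2 peaks, Eif4ebp1 (35.8), Akt1 (31.3), Insr (31.1) and Mtor (30.9), and above Igf1r (27.8), Irs2 and Rptor. At Irs2 the peak chr8:11005032-11010081 spanned 5050 bp of the first exon and upstream DNA, which is also the start of 9530052E02Rik. It held 118, 127 and 157 CPM in LacZ-shRNA and 152, 157 and 142 CPM in Yap-shRNA, and 26.6 CPM per kb of peak in LacZ-shRNA. The highest sample of each group reached the same level, and the log2 fold change was 0.16 (SE 0.14, adjusted p 0.833 by edgeR). This peak held 4839 counts over the 6 samples, whereas the Irs2 window, which lies inside it, held 1298. At Irs1 the promoter peak chr1:82290004-82292278 contains the sequence with the TEAD match shown above. It held 71.5, 50.5 and 79.3 CPM in LacZ-shRNA and 70.5, 66.8 and 59.7 CPM in Yap-shRNA, the Yap-shRNA samples lying inside the LacZ-shRNA range, with a log2 fold change of -0.060 (SE 0.13, adjusted p 0.959 by edgeR).

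The promoter peaks of Insr (chr8:3278258-3280093) and Eif4ebp1 (chr8:27259810-27261866) held 57.2 ± 10.8 and 73.6 ± 13.0 CPM in LacZ-shRNA (SD, n = 3). In Yap-shRNA they held 60.7 ± 5.34 and 69.2 ± 2.63. Those of Mtor (chr4:148448050-148449197) and Rptor (chr11:119602669-119603685) are narrower and held 35.5 ± 3.28 and 26.8 ± 3.21 CPM in LacZ-shRNA, and 33.4 ± 1.60 and 28.8 ± 0.625 CPM in Yap-shRNA. None of these 4 differences was larger than the SD of the LacZ-shRNA samples. Those of Eif4ebp1, Mtor and Rptor were larger than the SD of the Yap-shRNA samples. The edgeR adjusted p was 0.961, 0.909, 0.910 and 0.943 for Insr, Eif4ebp1, Mtor and Rptor.

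Open sites were not confined to the 5′ ends. Akt2 had its peak of highest CPM, 3481 bp wide, 15.4 kb inside the gene, over a cluster of internal starts (chr7:27605254-27608734), at 120, 132 and 142 CPM in LacZ-shRNA and 128, 128 and 135 CPM in Yap-shRNA. The Yap-shRNA samples fell inside the LacZ-shRNA range. Its peak at the 5′ end (chr7:27591133-27592754), which contains the Akt2 promoter sequence, is 1622 bp wide and held 55.8 ± 6.28 and 56.1 ± 1.71 CPM. Per kb of peak these were close, at 37.8 and 34.4 CPM in LacZ-shRNA. Akt1 had no listed peak at its 5′ starts, and the promoter with the FOXO match lay in none. The only peak at an Akt1 start (chr12:112667432-112668159, 7.09 kb inside) held 22.8 ± 5.14 CPM in LacZ-shRNA and 24.2 ± 2.37 CPM in Yap-shRNA, and 13.3% of the counts of the Akt1 window. The peak of highest CPM linked to Akt1 (chr12:112641708-112645769) held 153 ± 16.7 and 151 ± 2.93 CPM, and it lies beyond the 3′ end of Akt1 at the start of the neighbouring gene Siva1. Igf1r had a promoter peak (chr7:67950716-67952588) at 52.1 ± 8.43 CPM in LacZ-shRNA and 48.0 ± 5.74 CPM in Yap-shRNA. An intron peak 263 kb downstream (chr7:68215206-68217075) of nearly the same width held 55.6 ± 4.16 and 56.1 ± 5.27 CPM.

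**Figure D3:**
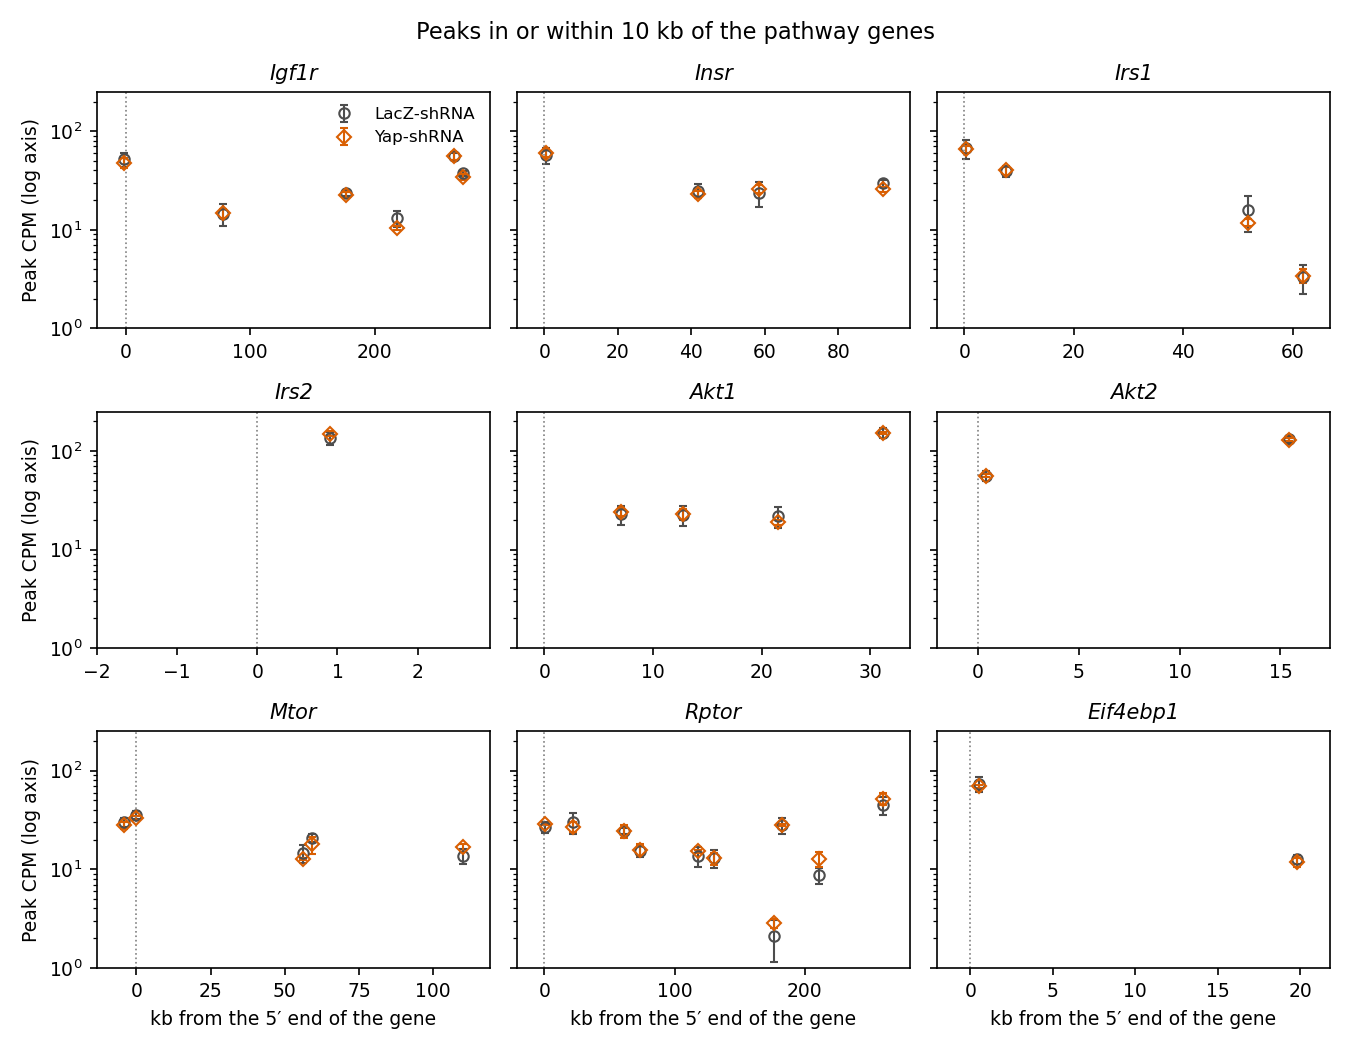
CPM of the 38 linked peaks on a log axis against the distance of the peak's centre from the 5′ end of its gene in kb, one panel per gene; circles and diamonds are LacZ-shRNA and Yap-shRNA means and bars the SD (n = 3). The symbols of the groups lie on each other at nearly all peaks, and the wider Akt2 peak near 15.4 kb stands above the narrower one at its 5′ end.

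The sequences of 2 intron peaks are printed, one for its p-value and the other for a TEAD match. The smallest p of the 38 was in an intron of Rptor, 211 kb from the 5′ end (chr11:119813346-119813860), with 6.85, 9.77 and 9.57 CPM in LacZ-shRNA and 11.8, 11.0 and 15.2 CPM in Yap-shRNA. All 3 Yap-shRNA samples lay above all LacZ-shRNA samples, and the log2 fold change was 0.52 (SE 0.22, 95% interval 0.074 to 0.98, p 0.024 by edgeR), which did not pass adjustment (adjusted p 0.435). It was 0.36 without Yap-shRNA replicate 3. Its central 300 bases (chr11:119813453-119813752, plus strand) hold a tandem repeat of GCTG followed by a further base, mostly GCTGT. The letters GCTG were found 42 times on both strands together. At least that number was found in 0.156% of 35982 peak centres, whose median was 4. The next linked peak had 19. These letters were counted after the sequence had been seen, and whether the reads of this peak map to this place alone was not tested. None of the 6 motifs matched there. The other sequence is the centre of an Insr intron peak 41.9 kb from the 5′ end (chr8:3237570-3237869, plus strand), the only one of the 38 centres with a TEAD match, against 2.17% of all peak centres.
Rptor intron: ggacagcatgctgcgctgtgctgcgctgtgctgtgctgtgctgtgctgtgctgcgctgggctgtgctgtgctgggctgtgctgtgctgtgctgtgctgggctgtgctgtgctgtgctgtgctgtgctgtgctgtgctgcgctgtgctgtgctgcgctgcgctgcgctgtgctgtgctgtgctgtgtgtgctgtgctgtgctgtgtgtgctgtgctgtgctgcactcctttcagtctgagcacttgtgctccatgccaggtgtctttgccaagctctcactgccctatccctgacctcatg
Insr intron: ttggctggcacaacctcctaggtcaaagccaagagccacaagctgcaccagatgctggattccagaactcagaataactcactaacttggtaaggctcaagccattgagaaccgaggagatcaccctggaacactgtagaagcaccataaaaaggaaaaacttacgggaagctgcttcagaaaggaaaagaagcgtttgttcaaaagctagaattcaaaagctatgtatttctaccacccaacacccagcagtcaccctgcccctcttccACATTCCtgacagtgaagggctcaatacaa

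That Insr peak (chr8:3237156-3238285) held 20.3, 27.2 and 27.5 CPM in LacZ-shRNA and 24.6, 22.5 and 21.3 CPM in Yap-shRNA. The Yap-shRNA samples lay within the LacZ-shRNA range, and the log2 fold change was -0.14 (SE 0.15, adjusted p 0.891 by edgeR). The second linked peak with separate groups was also in Insr, 92.0 kb from the 5′ end (chr8:3187130-3188036). It held 30.1, 27.2 and 32.1 CPM in LacZ-shRNA and 27.1, 23.9 and 26.0 CPM in Yap-shRNA, where the highest Yap-shRNA sample came just under the lowest LacZ-shRNA sample, and the log2 fold change was -0.24 (SE 0.14, adjusted p 0.679 by edgeR). Among the centres of the 38 peaks, 10 held the muscle E-box and 9 the Sp/KLF letters, against 17.3% and 27.0% of all peak centres, and 0 held the FOXO, NRF-type or CRE letters.

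Of the other peaks named for their p-values, those above 0 were at Rptor, Mtor and Irs2. The Rptor intron peak 260 kb from the 5′ end (chr11:119861499-119863967), the highest in CPM of that gene over 2469 bp but not per kb (18.1 against 26.3 at the promoter), held 44.7 ± 9.25 CPM in LacZ-shRNA and 52.2 ± 6.88 CPM in Yap-shRNA, with a log2 fold change of 0.24 (SE 0.14, adjusted p 0.646 by edgeR). That 118 kb from the 5′ end gave 0.22, and the Mtor peak 110 kb from the 5′ end, beyond the gene's 3′ end at the start of Exosc10, gave 0.25. Those below 0 were intron peaks of Irs1 at 51.9 kb, Igf1r at 218 kb and Mtor at 56.2 and 59.1 kb, besides that of Insr. Their log2 fold changes were -0.34, -0.28, -0.25 and -0.22, with edgeR adjusted p of 0.703, 0.780, 0.789 and 0.787. The Irs1 value contains 1 high LacZ-shRNA sample, replicate 2 at 22.9 CPM, beside 10.7 to 13.0 in the 5 others.

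Rptor had the most linked peaks, 10, of which 8 were above 0 (49.5% of all peaks were) with a median of 0.086, beside -0.0087 over all 38. Within 50 kb of Rptor there were 13 peaks, 11 above 0, and 4 had an unadjusted p under 0.05, against 8.90% of all peaks, with none called. The 3 of these outside the gene lay 311, 331 and 340 kb from its 5′ end, with log2 fold changes of 0.32, 0.38 and 0.28. The first lies at the start of Chmp6 and the last at those of Baiap2 and Gm11767, and the smallest edgeR adjusted p was 0.348. The smallest p of all within 50 kb of a member belonged to a peak 16.6 kb upstream of Irs2 (chr8:11024536-11025642), inside 9530052E02Rik. It held 19.7, 20.0 and 21.5 CPM in LacZ-shRNA and 28.9, 26.3 and 28.6 CPM in Yap-shRNA. The groups were apart, and the log2 fold change of 0.44 (SE 0.15, p 0.0047 and adjusted p 0.237 by edgeR) did not pass. This peak was singled out after its values were seen.

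The wider pathway was described with 84 of 85 further genes that had a window, and 0 were called, against 0.0223% of all windows. A log2 fold change above 0 was seen in 43 and below 0 in 41, with a median of 0.0052 beside -0.014 for all windows. By role the medians ran from -0.078 for 7 mTOR complex subunits and -0.061 for 16 effectors to 0.13 for 9 receptor adaptors and inhibitors, of which 6 were above 0. Among 10 ligand carriers, including the IGF-binding proteins, 7 were above 0, and the PI3K and Akt module was divided 7 to 7. The groups separated in 3 of the 84, against 10.1%, namely Deptor and Rragd with lower and Sesn2 with higher values in Yap-shRNA. Of the 84 windows, 29 overlap that of another gene, those of Deptor and Sesn2 among them, so their counts are uncertain. Sesn2 also rests on only 16 to 77 counts per sample.

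Of the 84 genes, 1 had an unadjusted p under 0.05, against 4.90% of all windows. That gene was Ddit4, which encodes the stress-induced mTOR complex 1 inhibitor REDD1. It held 53.7, 72.1 and 88.6 CPM in LacZ-shRNA and 47.9, 49.2 and 58.4 CPM in Yap-shRNA. The lowest LacZ-shRNA sample lay under the highest Yap-shRNA sample, and the log2 fold change was -0.47 (SE 0.15, 95% interval -0.77 to -0.17, p 0.0028 and adjusted p 0.946 by edgeR). Without LacZ-shRNA replicate 1 it was -0.66 and passed the threshold (adjusted p 8.7e-05 by edgeR), in a fit that called 157 windows in place of 11. Without LacZ-shRNA replicate 3 it was -0.26.

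Other genes with the smallest p-values in each direction stayed short of the threshold, with edgeR adjusted p of at least 0.946. Rictor, the defining subunit of mTOR complex 2, held 28.6 ± 2.26 CPM in LacZ-shRNA and 24.1 ± 2.08 CPM in Yap-shRNA, a log2 fold change of -0.25. Rragd, a Rag GTPase that recruits complex 1 to the lysosome, held 52.4 ± 6.21 and 44.9 ± 1.29 CPM, a log2 fold change of -0.23. Values above 0 were those of Sh2b2, a receptor adaptor, at 0.27, Prr5, a subunit of complex 2, at 0.24, and Rps6kb1, the ribosomal S6 kinase that complex 1 activates, at 0.20. Prr5 and Sh2b2 had LacZ-shRNA replicate 1 as the lowest of the 6 samples, as Rptor did. The Rps6kb1 window overlaps that of another gene and its counts are uncertain.

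**Figure D4:**
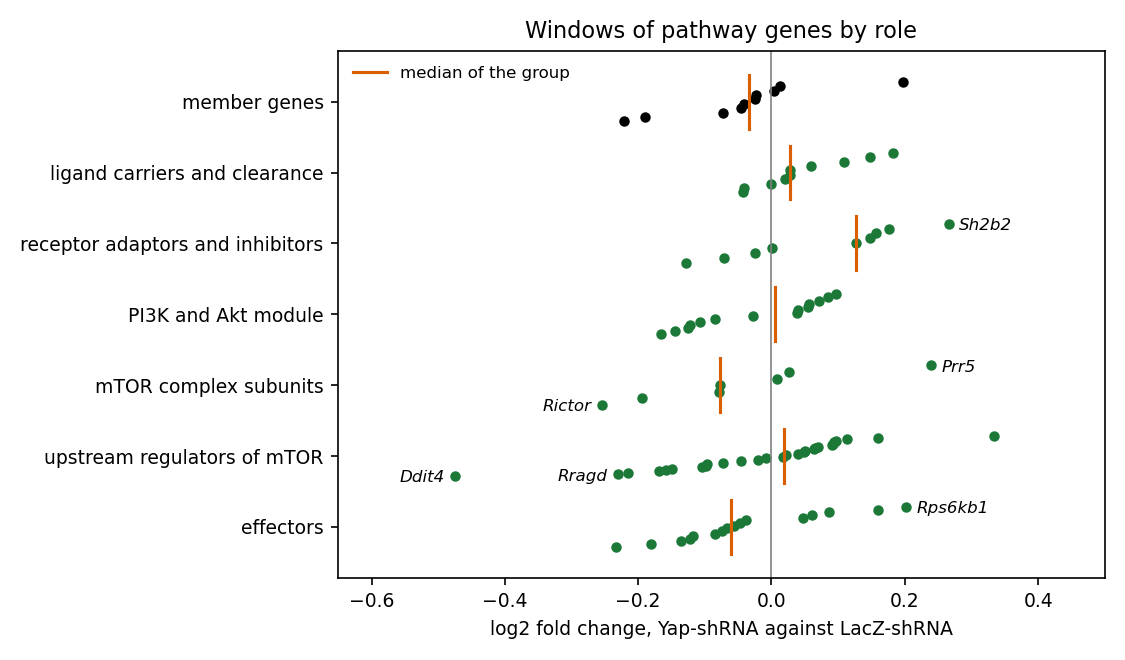
Log2 fold change of each window, Yap-shRNA against LacZ-shRNA, for the 10 genes described in full (black) and 84 further pathway genes (green) by role, with an orange line at the median of each group. Medians lie between -0.078 and 0.13, and Ddit4 stands lowest at -0.47.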

How the data were processed

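Adult mouse myonuclei were profiled by ATAC-seq in 3 LacZ-shRNA and 3 Yap-shRNA samples. The authors mapped reads to GRCm38 with BWA 0.7.17, used SAMtools 1.8, called peaks with MACS 1.4.2-1 and counted reads with featureCounts 1.5.0, the versions being those in the submitters' processing notes. The deposited values are raw counts of reads in whole numbers, for peaks in one table and start-site windows in another, from which the authors had removed rows with a mean under 10. A minimum mapping quality of 10 is stated for reads counted over whole genes, and whether it held for these tables, and so how multi-mapping reads were treated, is not given in the sources used here.

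The groups were compared by edgeR 4.0.16 (R 4.3.3) with its quasi-likelihood test, scaled by TMM and without covariates, and p-values were adjusted over all rows by Benjamini-Hochberg at 0.05. The study used edgeR's general linear model, and its likelihood-ratio test was an alternative. Others were DESeq2 1.42.0, limma 3.58.1 voom, library-size, RLE and upper-quartile scaling, an abundance loess offset (span 0.3), a mean count of at least 50, a replicate block, an adjusted p under 0.01, removal of windows that overlap another gene's, links of 1 and 50 kb, and leaving out each sample. The code was tested on simulated data. Windows were rebuilt from the GENCODE annotation of the same build, and all 49366 identifiers matched. Peaks were linked to a gene within 10 kb of its body.

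The genes and lists were chosen with earlier results of these data known. All 10 members are named, with the 3 further pathway genes of smallest p in each direction, the 5 linked peaks of smallest p in each direction and the highest linked peak of each gene. Motifs in the central 300 bases of peaks were counted after seeing the data, and so were levels by library size and without each LacZ-shRNA sample. The labels do not say that replicates are separate animals. A figure legend of the study gives 3 independent animals, whereas its methods pool 4 gastrocnemius and 4 TA muscles per replicate. The p-values therefore measure the spread between these pooled samples.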

Additional observations from a re-analysis of the deposited data

How the results depend on the processing

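Under every alternative run, 0 of the 10 windows and 0 of the 38 linked peaks were called. Depth and 3 samples a group limit what could be told from 0 to the 95% intervals given for the 10 windows, and window counts that overlap another gene's are uncertain. With library size alone the median of all peaks rose to 0.14 and that of all windows to 0.046. The cause was not tested for any of the values that follow.

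Of all windows, 11 were called, and 20 with DESeq2, 29 with the abundance offset, 33 with the likelihood-ratio test, 23 with voom, 7 without overlapping windows, and 4 to 157 when a sample was left out (157 without LacZ-shRNA replicate 1, 5, 4 and 8 without Yap-shRNA replicates 1, 2 and 3). Of all peaks, 223 were called, and 118 with DESeq2, 143 with the abundance offset, 378 with the likelihood-ratio test, 136 at a mean count of at least 50, 103 at an adjusted p under 0.01, and 94 to 447 when a sample was left out (447 without LacZ-shRNA replicate 3, 132 without LacZ-shRNA replicate 2, 94 without Yap-shRNA replicate 1 or 2). Of the 84 further pathway genes, 0 to 1 were called when a sample was left out.

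Signs near 0 turned. With library size alone the log2 fold change was 0.038 for Igf1, 0.037 for Igf1r, 0.021 for Akt2 and 0.021 for Mtor, and for peaks 0.082 at the Irs1 promoter, 0.12 at Siva1, 0.12 inside Akt2, 0.038 at the Mtor and 0.043 at the Eif4ebp1 promoter. With the abundance offset it was -0.0050 for Insr, -0.0013 for Akt1, and 0.086 and 0.076 for the peaks at Siva1 and inside Akt2. For Akt1 it was -0.0015 with DESeq2, -0.0013 with RLE factors and -0.0049 at a mean count of at least 50.

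Leaving out each sample gave ranges of -0.099 to 0.025 for Igf1, -0.096 to 0.053 for Igf1r, -0.066 to 0.16 for Insr, -0.23 to 0.15 for Irs2, -0.072 to 0.069 for Akt1, -0.16 to 0.025 for Akt2 and -0.14 to 0.010 for Mtor. For peaks they were -0.064 to 0.074 for Igf1r at 263 kb, -0.035 to 0.25 at the Insr promoter, -0.20 to 0.083 at the Irs1 promoter, -0.10 to 0.066 at Siva1, -0.080 to 0.046 inside Akt2, -0.029 to 0.35 for Rptor at 118 kb and -0.23 to 0.057 at the Eif4ebp1 promoter. Irs1, Rptor and Eif4ebp1 windows kept their sign under all alternatives.

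The vectors were given to opposite limbs, but the labels do not say that a number marks the same animals. Same-numbered samples correlated at 0.19, -0.12 and 0.092 in windows and 0.015, -0.093 and -0.14 in peaks. Pairs of unlike number ran from -0.26 to 0.20 in windows and from -0.035 to 0.14 in peaks. These values did not show a pairing by number, and they cannot tell whether samples of unlike number share animals. With the replicate block, 13 windows and 207 peaks were called, with 0 of the members, and the median of the members was -0.036.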
